A study of Ovis aries with 24 samples.

Results

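Ubiquitin ligase adaptor families were followed in sheep skeletal muscle through the callipyge trait, early postnatal growth and muscle type. The members were all single gene symbols of the array's probe-to-gene table that begin with FBX, ASB, TRIM, KLHL or CUL followed by the family's own numbering, without FBXO32. This gave 77 of 9156 named genes: 26 F-box genes, 25 TRIM genes, 12 KLHL genes, 10 ASB genes and 4 cullins. Each gene was represented by its brightest probe set over the 24 arrays. The choice used names and brightness, not differences between groups. Symbols of 73 of the 77 were found in the sheep RefSeq gene table (ARS-UI_Ramb_v3.0).

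RNA came from a flock crossed from Dorset, Suffolk and Rambouillet sheep and was hybridised to bovine Affymetrix arrays. The 12 groups have 2 arrays each, which the labels call technical replicates. Longissimus dorsi (LD), a back muscle, was taken within 5 days of birth (T0) and at 11 to 12 weeks (T12) from 4 genotypes at the callipyge locus: CC (both alleles), CN (NCpat, the allele inherited from the father), NC (CmatN, from the mother) and wild type NN. Supraspinatus (SS), a shoulder muscle, was taken at T12 from CN and NN, and the muscles coded SM and ST, from the hind limb, at T12 from NN. CN is the genotype that shows the muscle hypertrophy. The labels give SM conflicting names, so the code is kept. They describe LD from 8 male lambs, 4 of each of a pair of genotypes, and the number of lambs behind an array is not given. Each group therefore entered the tests as 1 value, the mean log2 signal of its arrays, and p-values measure the spread between such values. A difference between lambs or pools cannot be told apart from one of genotype where a genotype has 1 group.

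Ubiquitin ligases mark proteins for destruction by the proteasome. In the cullin-RING ligases a cullin is the scaffold, and a separate adaptor chooses the protein to be marked: F-box proteins bring substrates to CUL1 through SKP1, ASB proteins bring them to CUL5 through their SOCS box, and many KLHL proteins bring them to CUL3. TRIM proteins carry their own RING domain and usually act without a cullin. Muscle uses these enzymes to clear sarcomere proteins and to tune growth signals, and some of the adaptors and TRIM proteins are made mainly in striated muscle.

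All members lay on one chip scale: signal is the linear MAS5 intensity of a probe set, and the median array signal was 47.4 to 59.7. DLK1, which the callipyge allele raises in affected muscle, checked the labels: in LD its signal was 4093 at T0 and 9573 at T12 in CN, against 1106 to 1390 and 965.2 to 2818 in the other genotypes. In SS it was 1217 in NN and 1220 in CN, so it separated the genotypes in LD and not in SS. The members' log2 signals on the arrays of a group correlated at r of 0.881 to 0.953 across genes. Over 9 measured genes each, the summed signal of the groups was 178000 to 252000 for fast-fibre and 90300 to 224100 for slow-fibre markers. RNA comes from whole muscle, so fewer cells of a type and less RNA per cell cannot be told apart.

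The families were dominated by a few bright genes. KLHL41, a sarcomere-associated protein needed to stabilise nebulin, was the brightest with a mean signal of 15520. KLHL24, which controls the turnover of intermediate filaments, followed at 6518. The next were ASB5 at 2045, ASB12 at 1464, TRIM54 at 1393, CUL1 at 1130, ASB11 at 1041, KLHL21 at 896.4, FBXL5 at 881.4 and TRIM8 at 851.1. TRIM54 is the microtubule-binding muscle ligase MuRF3, and FBXL5 is the iron-sensing receptor for iron regulatory proteins. These are brightnesses of different probe sets on bovine probes and do not rank the transcripts. In all, 7 members had a mean signal of 1000 or more and 37 of 100 or more. At the other end, 10 members did not reach the lowest array median in any group, and 44 reached it in all 12 groups.

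**Figure D1:**
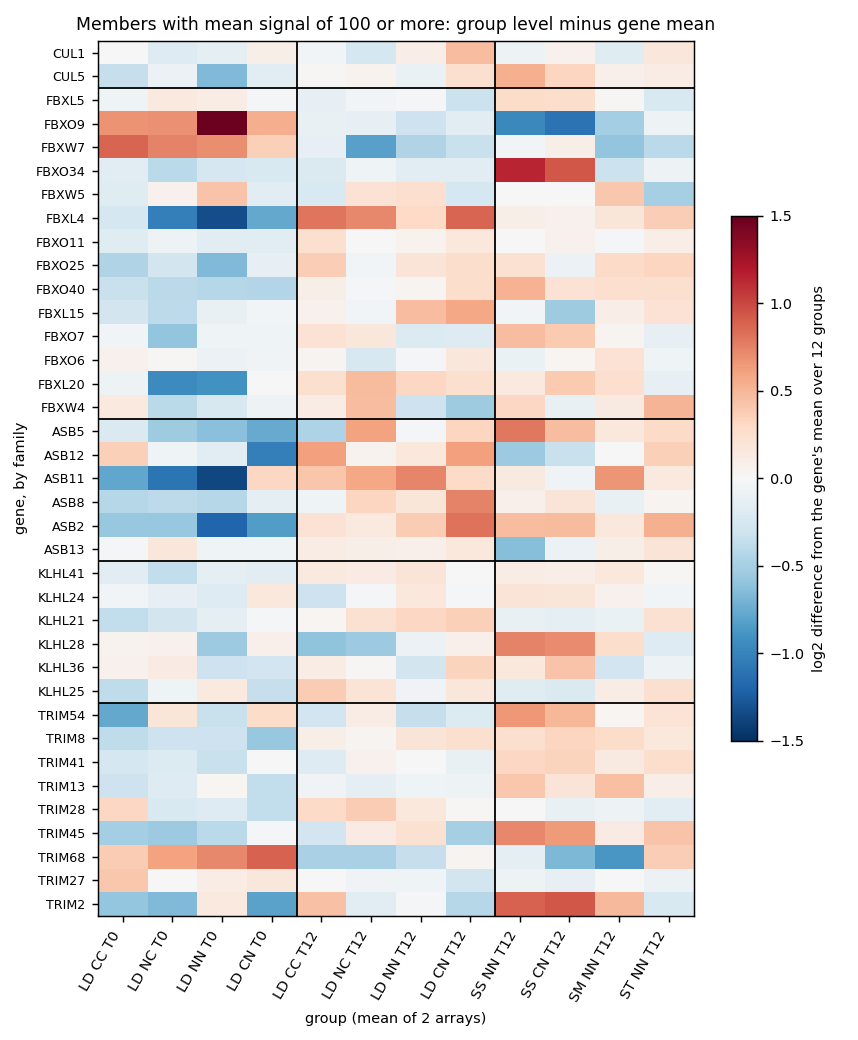
Each row is 1 of the 37 members with a mean signal of 100 or more, by family, and each column 1 of the 12 groups; the colour is the group's log2 signal minus the gene's mean over the groups. The change from T0 to T12 in LD is seen in ASB11, FBXL4 and ASB2, which are higher at T12, and in FBXW7, FBXO9 and TRIM68, which are lower.

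A filter on low signal passed 66 members, those above the median log2 group value in at least 1 group. The other 11 were not tested: TRIM6, TRIM9, TRIM10, TRIM34, TRIM36, TRIM56, FBXO5, FBXO36, FBXL8, FBXW9 and KLHL12. A gene that passed only through a group where it was bright is more likely to differ. The counts below cover the tested members only, so they keep this leaning. The shares over all tested probe sets went through the same filter.

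Age in LD was the comparison with most member calls. T12 was compared with T0 in the CC, NC and NN groups, 3 values at each age, with limma at a Benjamini-Hochberg adjusted p under 0.05 over all tested probe sets. Of 66 tested members 10 rose and 3 fell, which is 19.7%, against 11.7% of all tested probe sets. Over all tested probe sets 5.9% were higher and 5.79% lower at T12. Taking only the brightest probe set of each named gene, as for the members, 14.2% were called. The median log2 change was 0.24 over the members and 0.06 over all probe sets, and 46 of the 66 members were positive (69.7%, against 55.2%).

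The ASB family, the CUL5 adaptors, held 4 of the 10 increases and no decrease, with a median change of 0.42 over its 10 tested genes. ASB11, an adaptor of the endoplasmic reticulum, had signals of 359.8 to 618.2 (median 493.2) on the 6 arrays at T0 and 1360.9 to 2199.7 (median 1491) on the 6 at T12. The arrays did not overlap, and the group values were 608, 487.4 and 404 in CC, NC and NN at T0 and 1392, 1560 and 1733 at T12. The log2 change was 1.66 ± 0.15 (SE, limma adjusted p = 0.000239), a 3.16-fold increase and the largest among the members.

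ASB2, which directs filamins to degradation, rose in the same comparison. Its arrays lay between 263.6 and 449 (median 393.6) at T0 and between 638.8 and 887 (median 720.3) at T12, again without overlap (log2 change 1.03 ± 0.17, limma adjusted p = 0.00395). ASB15, a striated muscle gene, went from 20.6 to 95.6 (median 65.75) at T0 to 99.2 to 157.7 (median 144.6) at T12. Its arrays only just separated, and its change was 1.30 ± 0.26 (limma adjusted p = 0.00966). ASB8 had array signals of 407.6 to 733.7 (median 558) at T0 and 676.8 to 960.5 (median 820.6) at T12. These overlapped on the arrays but not between group means, and the change of 0.56 ± 0.13 passed the test (limma adjusted p = 0.0158). A second ASB8 probe set gave 0.52 (limma adjusted p = 0.047).

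The remaining bright ASB genes were not called. ASB5, an ankyrin-repeat gene of muscle, had arrays of 1281.8 to 1914.2 at T0 and 1477.6 to 3721.6 at T12 (log2 difference 0.50 ± 0.22, limma adjusted p = 0.181). ASB12 had 1097.9 to 1998.4 and 1462.1 to 2473.9 (0.23 ± 0.17, limma adjusted p = 0.437). Both sets of arrays overlapped. The lowest ASB value was that of ASB7, at -0.45 ± 0.26.

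**Figure D2:**
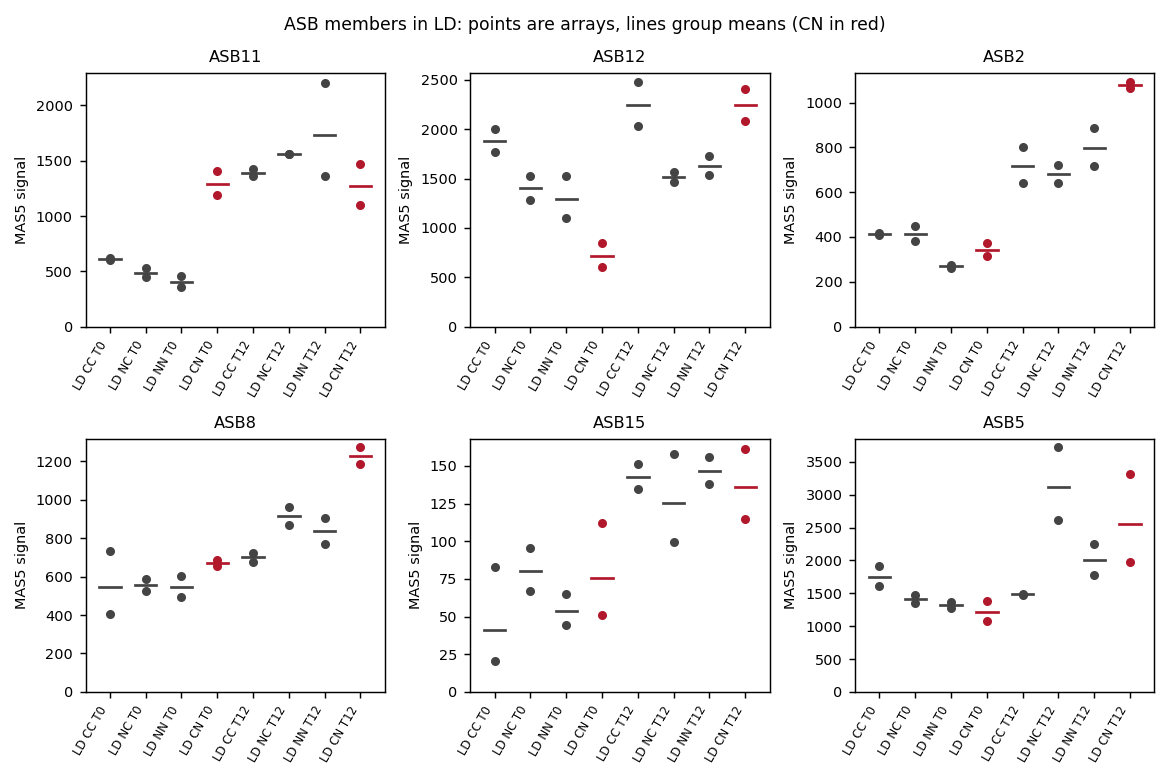
Points are the MAS5 signals of single arrays in LD and lines are geometric means of a group, by genotype and age, for ASB genes, with CN in red. ASB11 is low at T0 in CC, NC and NN and near its T12 level in CN, and ASB2 and ASB8 are higher at T12 in every genotype.

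F-box genes, the substrate receptors of CUL1 ligases, changed in both directions: 3 rose and 2 fell of 22 tested. FBXW7, the receptor that marks cyclin E, MYC and Notch, fell. Its arrays held 407.2 to 648.1 (median 524.5) at T0 and 160 to 318 (median 223.6) at T12, with no overlap and a log2 change of -1.24 ± 0.18 (limma adjusted p = 0.00192). FBXO9 fell from 1027.8 to 2375.5 (median 1342) to 454.5 to 841.1 (median 695), a change of -1.13 ± 0.19 (limma adjusted p = 0.00458). Its NN value at T0 was the highest, 2068 against 1195 in CC and 1207 in NC. A second FBXO9 probe set gave a smaller value, -0.46, that did not pass (limma adjusted p = 0.0756).

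The F-box genes that rose were FBXL4, FBXL20 and FBXO25. FBXL4, a mitochondrial protein that restrains mitophagy, had arrays of 96 to 234.8 (median 122.4) at T0 and 257.8 to 466.6 (median 384.2) at T12, without overlap (1.48 ± 0.25, limma adjusted p = 0.00444). Its second probe set gave 1.47 (limma adjusted p = 0.00795). FBXL20 had 52.7 to 130.7 (median 63.9) and 100.8 to 246.6 (median 140.8), with overlapping arrays (0.99 ± 0.25, limma adjusted p = 0.0288). Of its other probe sets, the brighter gave 1.04 (limma adjusted p = 0.00658) and the dimmer 0.82 (limma adjusted p = 0.0903). FBXO25, the closest relative of FBXO32 (atrogin-1), had 107 to 161 (median 127) and 158 to 235 (median 203.8), which overlapped slightly (0.64 ± 0.18, limma adjusted p = 0.0453). FBXO40, a muscle F-box protein that marks IRS1, was not called: 106.9 to 141.8 at T0 and 125.8 to 194.9 at T12 (0.42 ± 0.16, limma adjusted p = 0.124).

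**Figure D3:**
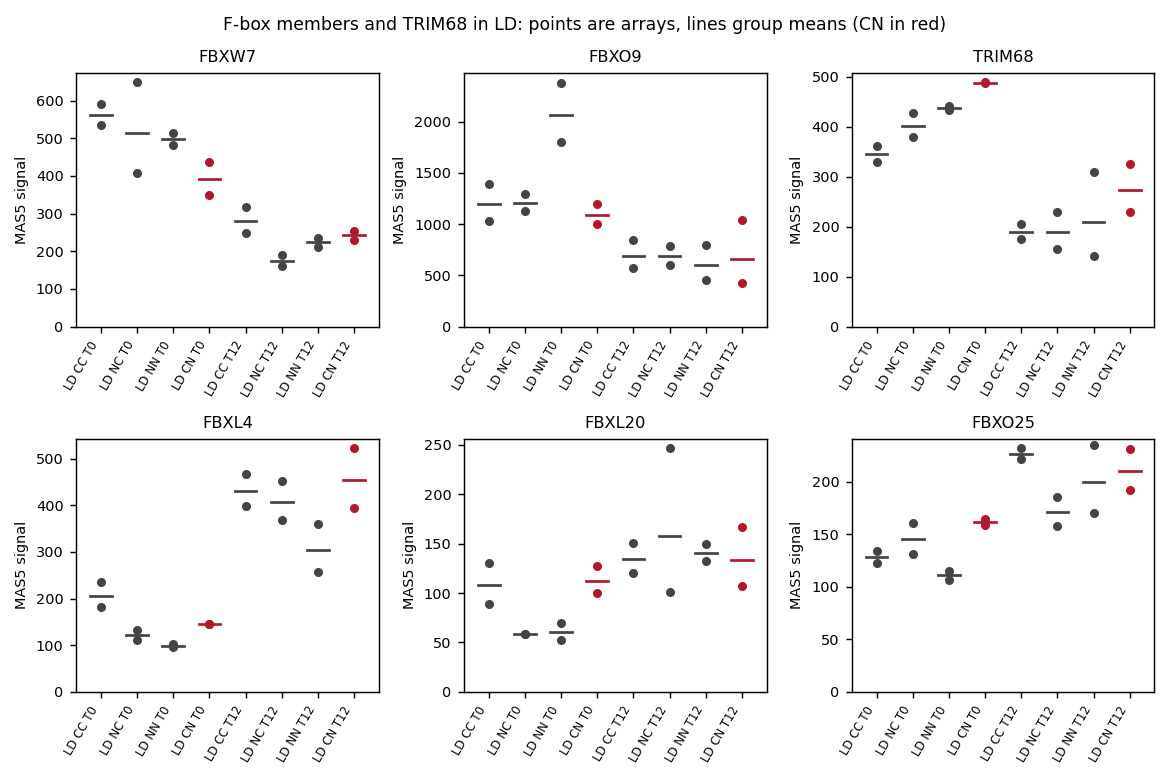
Points are MAS5 signals of single arrays in LD and lines are geometric means of a group, by genotype and age, for 5 F-box genes and TRIM68, with CN in red. FBXW7, FBXO9 and TRIM68 sit higher at T0 and FBXL4, FBXL20 and FBXO25 higher at T12; the T0 and T12 arrays of CC, NC and NN overlap for FBXL20 and FBXO25.

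Among the KLHL genes, 2 of 11 rose and none fell. KLHL41 had arrays of 11754.5 to 14435.5 (median 13620) at T0 and 16707.4 to 18775 (median 16930) at T12. These did not overlap, and the change was small and precise at 0.37 ± 0.09 (limma adjusted p = 0.024). KLHL21, which regulates Aurora B during cell division, had 685.6 to 825.4 (median 744.1) and 900.7 to 1164.2 (median 1027), also apart (0.45 ± 0.12, limma adjusted p = 0.0345). KLHL24 differed by 0.06 ± 0.12. The lowest KLHL value was that of KLHL2, at -0.50 ± 0.22.

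Of the 19 tested TRIM genes 1 rose and 1 fell. TRIM8 had arrays of 626.7 to 746.3 (median 671.5) at T0 and 838.3 to 1118.5 (median 891.4) at T12, with no overlap (0.44 ± 0.11, limma adjusted p = 0.0227). Its second probe set gave 0.66 (limma adjusted p = 0.0111). TRIM68 fell from 328.5 to 441.2 (median 403) to 141.1 to 309.5 (median 190.3), again without overlap (-1.01 ± 0.15, limma adjusted p = 0.00234). TRIM7, TRIM55, TRIM63 and TRIM72 were on the list of adaptors looked for but had no probe set with their single symbol. TRIM32 and TRIM54 were measured and were not called. TRIM32, mutated in a limb-girdle muscular dystrophy, gave 0.54 ± 0.22 (limma adjusted p = 0.145) and TRIM54 gave 0.13 ± 0.21 (limma adjusted p = 0.734).

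The 4 measured cullins were not called with age. CUL1, the scaffold of the F-box ligases, had a signal of 1048 at T0 and 1077 at T12 (log2 difference 0.04 ± 0.12). CUL5, the scaffold of the ASB ligases, had 176 and 225.4 (0.36 ± 0.18, limma adjusted p = 0.228). CUL2, the scaffold of the VHL ligase, gave 0.15 ± 0.24 and CUL7 gave 0.28 ± 0.28.

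**Figure D4:**
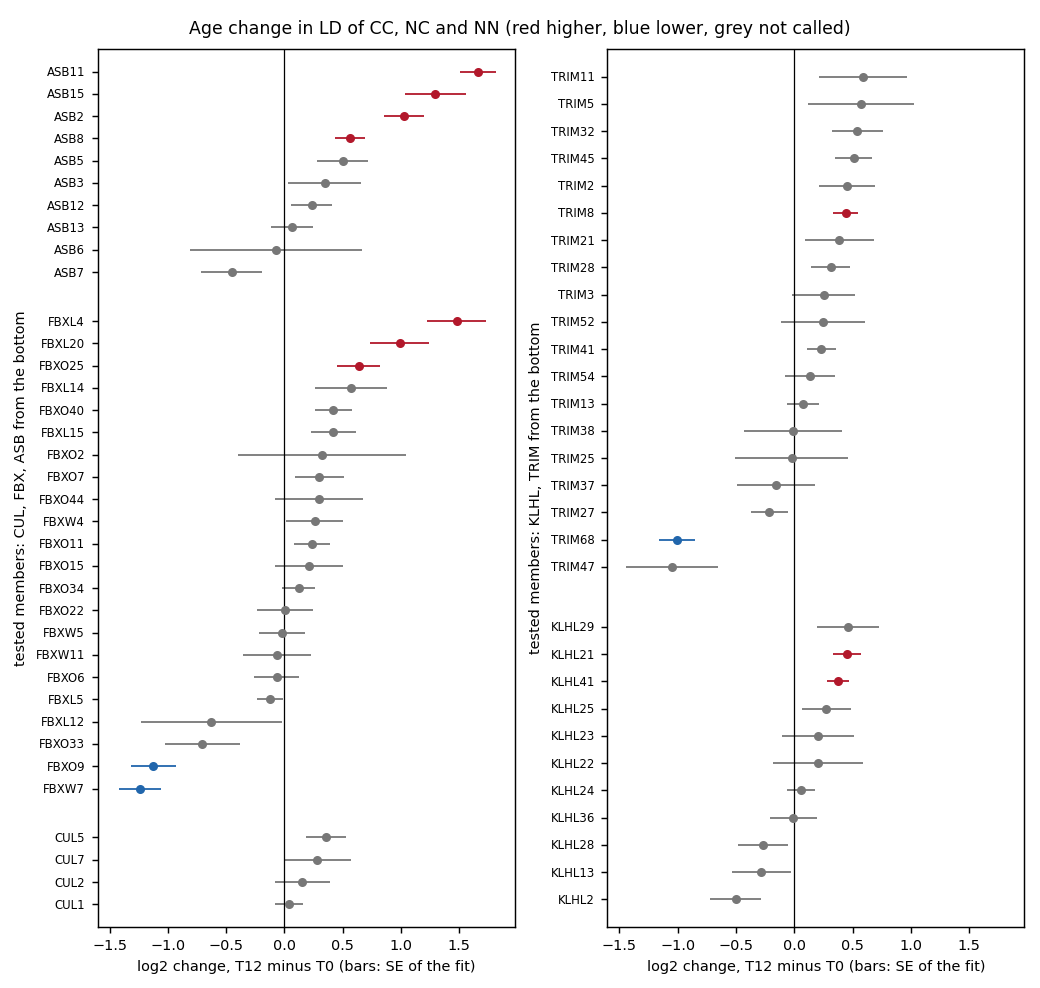
Points are log2 changes from T0 to T12 in LD (CC, NC and NN) with bars of 1 SE, for the tested members by family; red marks genes called higher, blue lower and grey not called. The 13 called genes run from ASB11 at 1.66 to FBXW7 at -1.24, and the cullins lie between 0.04 and 0.36.

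Calls for the dimmer or smaller age changes rested on single arrays. ASB8 was not called without the LD CC T0 replicate 2 array (0.42, limma adjusted p = 0.119). FBXL20 was not called without that array (0.90, limma adjusted p = 0.0896) or LD NC T12 replicate 1 (0.77, limma adjusted p = 0.0955). KLHL21 was lost without LD NC T0 replicate 1 (0.43, limma adjusted p = 0.0508) or LD NC T12 replicate 2 (0.42, limma adjusted p = 0.0806), and KLHL41 without the latter (0.37, limma adjusted p = 0.0566). TRIM8 was lost without the LD array of NN T12 replicate 1 (0.38, limma adjusted p = 0.0561), NC T12 replicate 2 (0.42, 0.0643) or NC T0 replicate 1 (0.40, 0.0512). FBXO25 was lost without CC T0 replicate 2, NC T0 replicate 1, either NN T0 array, either T12 array of CC or NC, or NN T12 replicate 1, with changes of 0.56 to 0.68 (limma adjusted p = 0.0543 to 0.0956). It was also lost after quantile normalisation (limma adjusted p = 0.0631), with signals floored at 32 (0.0545) and without the filter on low signal (0.061), which also ended the KLHL41 call (0.0599). Its mean over both probe sets gave 1.15 (limma adjusted p = 0.183), and that of KLHL21 gave 0.13 (limma adjusted p = 0.762). With the spread estimated without its trend on intensity, 2 of the 13 stayed called, ASB11 and TRIM68. Calls over all probe sets fell from 1830 to 225 in that fit. Among cell markers in the same comparison, 1 of 7 adipocyte, 3 of 10 matrix, 1 of 9 slow-fibre and 1 of 3 red blood cell markers were lower at T12. Higher at T12 were 2 of 8 immune, 2 of 9 fast-fibre and 1 of 7 endothelial markers. The summed signal of the matrix markers was 60360 to 68880 in the T0 groups and 41940 to 53110 in the T12 groups, and that of the adipocyte markers 1370 to 2223 and 1061 to 1489. Median signals of the CC, NC and NN arrays were 50.1 to 52.9 at T0 and 53.6 to 58 at T12, without overlap. The log2 ratio of the 3' to the 5' GAPDH control probe sets was 0.131 to 0.307 at T0 and 0.043 to 0.246 at T12 on these arrays. The part of these markers and array differences in the members' changes was not tested.

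Other parts of the ubiquitin machinery moved in both directions with age. Of 109 listed genes 64 were measured and 61 tested, each by its brightest probe set. Of these 9 rose and 5 fell, which is 23% of those tested. The share was 11.7% of all tested probe sets and 14.2% of named genes by their brightest probe set. The increases included E2 enzymes, which pass ubiquitin to the ligase: UBE2G1 by 0.73 ± 0.11, CDC34 by 0.55 ± 0.11 and UBE2B by 0.43 ± 0.09. They included the KLHL-like receptors IVNS1ABP (1.01 ± 0.15), KBTBD2 (0.83 ± 0.10) and KEAP1 (0.73 ± 0.12), and DCAF6 (0.93 ± 0.10), DCAF8 (0.60 ± 0.11) and KLHDC2 (0.44 ± 0.10). FEM1C (-1.46 ± 0.17), a CUL2 receptor, and SOCS2 (-1.38 ± 0.16), the CUL5 receptor that restrains growth hormone signalling, fell. CAND1 (-0.55 ± 0.12), which exchanges adaptors on cullins, KLHDC3 (-0.49 ± 0.10) and the E1 enzyme UBA1 (-0.39 ± 0.11) fell as well. All 14 passed limma at an adjusted p of at most 0.0402. None of the 3 tested core subunits or 6 tested neddylation genes was called.

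The callipyge genotype at birth was compared as CN against CC, NC and NN in LD at T0. Of 66 members 1 was called, against 0.172% of all tested probe sets. ASB11 was higher in CN: its arrays there read 1404.9 and 1186.4, against 597.9 and 618.2 in CC, 446 and 532.7 in NC and 453.6 and 359.8 in NN. Both CN arrays lay above all 6 others, at a log2 change of 1.39 ± 0.22 (limma adjusted p = 0.0469), or 2.62-fold. The CN value of 1291 at T0 lay beside its 1270 at T12. This comparison and the age comparison share the T0 groups of CC, NC and NN.

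The ASB11 call was close to the threshold. It held in 13 of 24 fits with 1 array left out, where the change was 1.27 to 1.51 and the adjusted p at most 0.094 (limma). It was lost without either array of CC, NC or NN at T0, either of CC or NN at T12, or LD NC T12 replicate 2. It was lost after quantile normalisation (limma adjusted p = 0.0527), with signals floored at 32 (0.081), without the intensity trend (0.26) and with NN alone as control (change 1.68, limma adjusted p = 0.0864). Median signals of the CN arrays were 47.4 and 48.1 at that age, under the 50.1 to 52.9 of the other T0 arrays; the part of this gap in the result was not tested. Most cell marker lists were also lower in CN at T0, with no marker called. The median was -1.01 for red blood cell (0 of 3 positive), -0.80 for endothelial (1 of 7) and -0.36 for matrix markers (1 of 10). It was -0.27 for adipocyte (2 of 7), -0.23 for fast-fibre (1 of 9) and -0.21 for slow-fibre markers (0 of 9). Immune markers had a median of 0.11 (5 of 8 positive) and nerve, Schwann and satellite markers 0.23 (2 of 3). The summed matrix signal was 48070 in CN and 60360 to 68880 in the others. The part of these markers in the ASB11 and ASB12 values was not tested. The exact age of each T0 lamb is not given, so an age difference within those days cannot be told apart from genotype.

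ASB12 differed the other way at T0 without passing the test. Its CN arrays read 607.9 and 844.1, below all 6 others at 1097.9 to 1998.4 (median 1527), a log2 difference of -1.07 ± 0.25 (limma adjusted p = 0.0932). Without LD CN T0 replicate 2, which leaves 1 array of CN, it gave -1.31, and TRIM38, a dim gene, gave -3.27. Larger values among the members whose brighter side reached a signal of 100 were FBXL20 at 0.63, TRIM54 at 0.58, FBXO22 at 0.52 and TRIM45 at 0.47. FBXL20 and FBXO22 had a mean of 100 or more on the CN side only. On the other side were TRIM2 at -0.43, FBXW7 at -0.42, FBXO9 at -0.40 (0.02 by its second probe set) and TRIM28 at -0.33. None of these had an adjusted p under 0.466 (limma). The cullins ranged from -0.55 for CUL7 to 0.21 for CUL5.

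At T12, when the hypertrophy is established, no member was called between CN and the other genotypes in LD by limma, against 0.179% of all tested probe sets. At an unadjusted p under 0.05 there were 8 of 66 (12.1%, against 9.98% of all probe sets). The median log2 difference was 0.01 over the members and -0.06 over all probe sets. ASB8 gave the largest positive difference among members whose brighter side reached a signal of 100, with CN arrays of 1274.9 and 1183.6 above all 6 others at 676.8 to 960.5 (0.60 ± 0.18, limma adjusted p = 0.252). ASB2 gave 0.56 ± 0.24 (1077 against 729.6, limma adjusted p = 0.469). CUL1 gave 0.53 ± 0.17, with CN arrays of 1595.9 and 1518.2 against 749.4 to 1326.1, again apart (limma adjusted p = 0.289). Its other probe sets gave 0.42 and 0.37. ASB7 at 0.55, with a mean of 100 or more on the CN side only, and KLHL28 at 0.49 followed.

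On the lower side at T12 were FBXW4 at -0.63, TRIM45 and TRIM2 at -0.52 each, FBXW5 at -0.35 and ASB11 at -0.29. The lowest adjusted p among members was that of the dim KLHL13, 17.47 in CN and 57.96 to 71.58 in the others (-1.88, limma adjusted p = 0.0724). KLHL13 gave -2.79 without LD CN T12 replicate 2, and TRIM21 gave -2.51 without LD CN T12 replicate 1. These fits rest on 1 array of CN, which is taken to vary like a mean of 2. KLHL41 (-0.16 ± 0.13), TRIM54 (-0.04 ± 0.30), FBXW7 (0.13 ± 0.25) and FBXO40 (0.23 ± 0.23) had limma adjusted p-values of 0.777 or more. Slow-fibre markers, all 9 negative with 2 called, had a median of -0.58 in CN at T12, with a summed signal of 90300 against 124600 to 155900. Matrix markers had a median of -0.59 (2 of 10 positive, none called), with sums of 31410 and 41940 to 53110. Adipocyte markers had a median of -0.32 (0 of 7 positive), endothelial -0.34 (1 of 7) and immune -0.33 (1 of 8). The part of these markers in the members' values was not tested. None of the 61 tested machinery genes was called at T12 by limma; 45 of them were positive, with a median of 0.17.

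The change of the callipyge difference between T0 and T12 in LD, the interaction, was called for no member by limma, as for 0% of all tested probe sets. An unadjusted p under 0.05 was found for 7 members (10.6%, against 8.89% of all probe sets). ASB11 gave -1.68 ± 0.31 (limma adjusted p = 0.197) and ASB12 gave 1.41 ± 0.35 (limma adjusted p = 0.269). TRIM45 gave -0.99 ± 0.32 (limma adjusted p = 0.415). Without LD CN T12 replicate 2 ASB11 gave -1.89.

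Muscles at T12 were compared because they differ in fibre composition. Wild type SS was set against LD of CC, NC and NN (3 values, of which CC and NC carry the callipyge allele) and against wild type SM and ST. FBXO34, an F-box gene, was the 1 member called, in SS: 1 of 66, against 2.96% of all tested probe sets for SS against LD and 0.997% for SS against the hind limb. Its arrays in SS NN read 629.7 and 698.5, against 242.6 to 308.5 (median 263.8) on the 6 LD arrays and 264.4, 219.6, 301 and 270.7 in SM and ST. No array of SS overlapped with the others. The log2 change was 1.29 ± 0.20 against LD (limma adjusted p = 0.00594) and 1.34 ± 0.21 against the hind limb (limma adjusted p = 0.0146), or 2.45-fold and 2.53-fold. The SS CN arrays, outside both comparisons, read 529.4 and 627. Over all LD groups of both ages FBXO34 lay between 226.6 and 286.9.

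An F test over all 4 muscles called FBXO34 (limma adjusted p = 0.0263) and no other member, against 1.28% of all tested probe sets. That call was lost without the LD array of NN T12 replicate 2 (limma adjusted p = 0.0524), NC T0 replicate 1 (0.0579) or NC T12 replicate 2 (0.0772). The second FBXO34 probe set gave 0.96 against LD (limma adjusted p = 0.12). With wild type NN as the only LD group the call against LD was lost (limma adjusted p = 0.0762), as it was without the intensity trend (0.0696). In the SS comparisons FBXL12, a dim gene, gave -3.57 against LD and -3.28 against the hind limb without LD NC T12 replicate 1. KLHL29 against LD gave -1.76 without SS NN T12 replicate 1 and -0.01 without replicate 2 of that group. TRIM68 was not called by the F test (limma adjusted p = 0.121), and leaving out SM NN T12 replicate 2 or SS NN T12 replicate 2 changed that.

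Other members differed between SS and LD by amounts that did not pass the test; 14 of 66 had an unadjusted p under 0.05 (21.2%, against 15.8% of all probe sets). KLHL28 had SS arrays of 317 and 328.4 above LD at 110.1 to 183.4 (1.16 ± 0.31, limma adjusted p = 0.0737). TRIM54 gave 0.82 ± 0.30, TRIM2 0.80 ± 0.34 and ASB5 0.75 ± 0.31. ASB12 had SS arrays of 1002.7 and 1007.6 below LD at 1462.1 to 2473.9 (-0.82 ± 0.25, limma adjusted p = 0.113). ASB15 gave -0.74 ± 0.37 and ASB13 -0.73 ± 0.25. KLHL29 gave -0.89 ± 0.38 by its brightest probe set, a value set by 1 SS array as above. Its second probe set gave -1.03 ± 0.34 (limma adjusted p = 0.157). FBXO9 gave -0.78 ± 0.28 by its brightest probe set and 0.17 ± 0.21 by its second, in opposite directions. Against the hind limb ASB7 gave 0.87 ± 0.39 and ASB13 -0.77 ± 0.27. Of the cullins, CUL2 gave 0.74 ± 0.33 and CUL5 0.55 ± 0.25 against LD, and CUL1 was level at -0.01 ± 0.17. Of the machinery, IVNS1ABP (-1.37 ± 0.22), KBTBD2 (-0.71 ± 0.15) and CDC34 (-0.68 ± 0.16) were lower in SS (limma adjusted p = 0.00669, 0.0274 and 0.0434).

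Fibre and fat markers moved with these muscle comparisons. In SS against LD the slow-fibre markers were positive for 9 of 9 (median 0.58, 2 called) and the adipocyte markers for 7 of 7 (median 0.87, 2 called). The summed slow-fibre signal was 218900 in SS NN and 124600 to 155900 in the CC, NC and NN groups of LD at T12. The summed adipocyte signal was 3576 in SS NN and 1061 to 1489 in those LD groups. The fast-fibre markers had a median of -0.33. Their part in the FBXO34 difference was not tested.

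**Figure D5:**
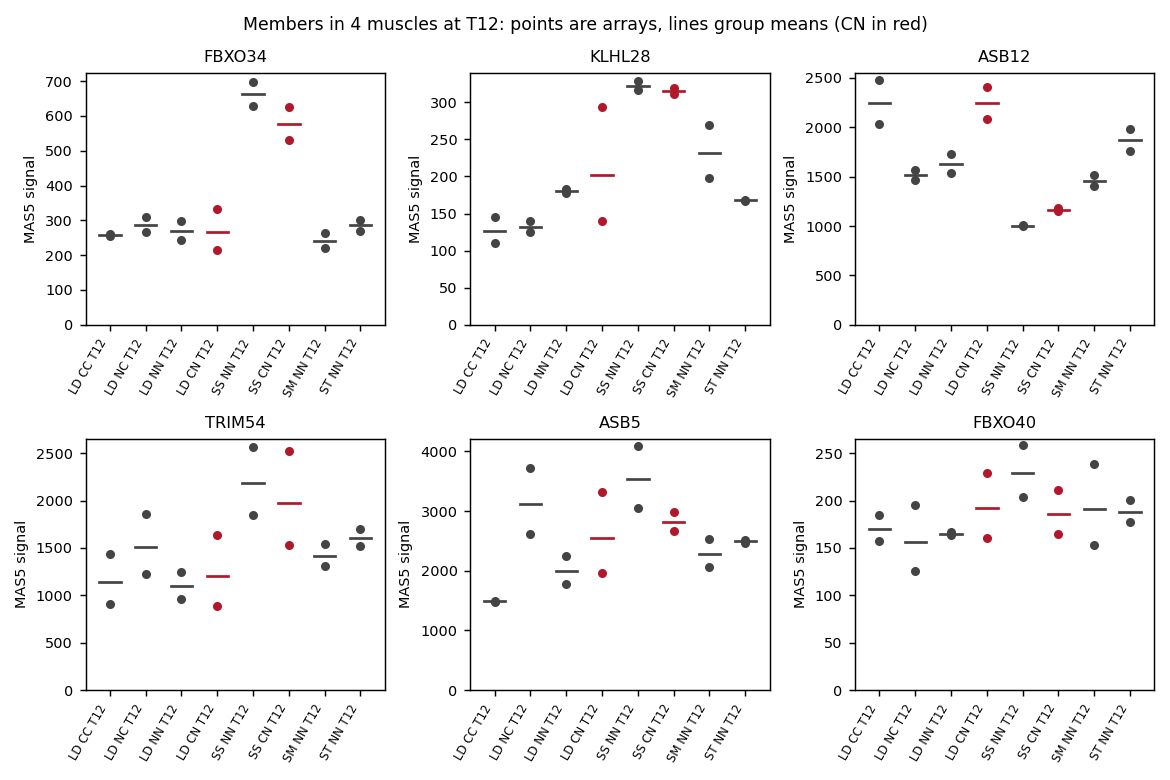
Points are MAS5 signals of single arrays at T12 and lines are geometric means of a group, for members in the 4 muscles. FBXO34 arrays in SS lie at 529.4 to 698.5, above every array of LD, SM and ST.

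Between the hind limb muscles and LD no member was called by limma, against 0.0447% of all tested probe sets. At an unadjusted p under 0.05 were 3 members (4.55%, against 7.35% of all probe sets). Among members whose brighter side reached a signal of 100, the largest values were 0.59 ± 0.25 for KLHL2 and -0.50 ± 0.29 for ASB15. The dimmer FBXO33 gave 0.96 ± 0.36 by its brightest probe set (90.86 against 46.8, limma adjusted p = 0.593) and -0.12 ± 0.46 by its second. In SS, a muscle the trait spares, no member was called by limma between CN and NN, with 1 value each, as for 0% of all tested probe sets. An unadjusted p under 0.05 was found for 4 members (6.06%, against 4.19% of all probe sets). CUL7 gave -2.05 ± 0.49, with dim CN arrays of 11 and 20.3 below NN at 55.9 and 68.4 (limma adjusted p = 0.54). CUL1 gave 0.14 ± 0.21, CUL5 -0.21 ± 0.30 and CUL2 -0.36 ± 0.41. FBXO2, with a mean of 100 or more on the CN side only, gave 1.33 ± 1.25. TRIM68 gave -0.55 ± 0.26 and ASB13 0.55 ± 0.31, and with 1 array left out these ranged from -1.07 to -0.03 and from 0.18 to 0.92. ASB13 also passed 100 on the CN side only (117.9 against 80.59). TRIM3, a dim gene, gave -3.62 without SS CN T12 replicate 2. The callipyge difference in SS minus that in LD was called for no member by limma either, as for 0% of all tested probe sets. Here 5 members had an unadjusted p under 0.05 (7.58%, against 4.96% of all probe sets). TRIM68 gave -1.02 ± 0.34 (limma adjusted p = 0.775).

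Carriers of the allele other than CN were set against NN across T0 and T12 in LD. For NC against NN no member was called by limma, against 0.0128% of all tested probe sets. An unadjusted p under 0.05 was found for 2 members (3.03%, against 4.28% of all probe sets). TRIM54 gave 0.49 ± 0.20 (1545 against 1098). For CC against NN no member was called by limma, again against 0.0128%, and 6 had an unadjusted p under 0.05 (9.09%, against 5.49% of all probe sets). FBXL4 gave 0.78 ± 0.22 (298.3 against 173.6, limma adjusted p = 0.701) and FBXW5 -0.54 ± 0.19. KLHL29 gave 0.69 ± 0.28 by its brightest probe set and -0.09 ± 0.33 by its second. The lowest adjusted p was that of the dim FBXO2, which recognises glycoproteins: its CC arrays read 17.9, 10.3, 13.1 and 23.3, all below NN at 74.7, 99.1, 91.6 and 60.2 (-2.38 ± 0.48, limma adjusted p = 0.37).

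Genes with several probe sets were checked against their other probes. Of 18 such members, 14 had a tested second probe set, 17 in all, and the age change of 15 of the 17 had the sign of the brightest. The same held for 9 of 17 for SS against LD, 11 for SS against the hind limb, 10 for callipyge at T0, 13 at T12 and 15 in SS. The exceptions with age were FBXO33 (-0.71 by the brightest, 0.31 by the other) and a dim FBXO7 probe set (-0.01 against 0.30). FBXO6 and FBXO2 are neighbours in the sheep annotation, and neither was called.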

How the data were processed

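Biotin-labelled cRNA from 5 µg of total RNA was hybridised, per the labels. The authors deposited 1 linear intensity for each probe set, computed by MAS5 per the submitters' processing notes (version not given in the sources used here). The chip software's detection calls were not used. Signals were floored at 1 (5477 of 579072 values) and log2 was taken; the 2 arrays of a group were averaged.

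Tests used limma 3.58.1 in R 4.3.3 (lmFit, then eBayes with trend set; two-sided p-values adjusted by Benjamini-Hochberg over 15654 probe sets). These are the probe sets above the median of group log2 values (5.638) in at least 1 of 12 groups; 112 controls were left out. At each age the LD groups of CC, NC and NN were 3 values of a cell, giving 8 cells, 4 residual degrees of freedom and prior degrees of freedom of 6.89. Groups with 1 value are assumed to vary like those cells. NC and CC against NN used the 8 groups of LD and included age. Each of the 12 comparisons shares groups with others.

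Gene names come from the platform annotation of 2016; 13318 probe sets had 1 symbol and 86 several, and the rest had none. Named are the called members, the cullins, a list of adaptors and the 10 brightest. Also named are the 5 largest changes each way among members whose brighter side had a signal of 100 or more. Dimmer members and those called when an array was left out were named after their values were seen. The members and lists were chosen with earlier results of these data known. The fit was tested on simulated data with known changes in 200 probe sets. For a true log2 change of 1 it called 33.5% of them for callipyge at T12 and 38% at T0. It called 62.5% for age and 31.5% for SS against LD. A member that was not called can therefore still have changed. Alternatives were quantile normalisation, a pseudocount of 16, a floor of 32, other filters, no trend, single arrays with and without a replicate block, NN alone as control, the mean over probe sets, and leaving out each array. Array number limits the precision.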

Additional observations from a re-analysis of the deposited data

How the results depend on the processing

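The counts of called members depended on settings as follows; limma was used throughout, and the cause of each change was not tested. Without the intensity trend the count fell from 13 to 2 for age in LD and to 0 for the callipyge comparison at T0, the 4 muscles, SS against LD and SS against the hind limb. Calls over all probe sets fell in the same fit, from 1830 to 225 for age, 27 to 0 at T0 and 201 to 1 for the 4 muscles. They fell from 463 to 86 for SS against LD and from 156 to 4 for SS against the hind limb. Quantile normalisation, a floor of 32 and NN as the only control each gave 0 at T0, and NN alone gave 0 for SS against LD. Over all probe sets these gave 7, 11 and 0 calls at T0 (27 in the main fit). NN alone gave 129 for SS against LD (463). With single arrays and the group as a random effect, the count was 1 at T12, 2 at T0, 3 for the interaction with age, 5 for the 4 muscles, 5 for SS against LD and 1 for CC against NN (FBXO2). In this fit calls over all probe sets rose too, to 269 at T12 (28 in the main fit), 580 at T0 (27) and 171 for the interaction (0). They were 892 for the 4 muscles (201) and 1149 for SS against LD (463). The consensus correlation was 0.019, so that fit treats the arrays of a group as nearly independent. Adding the replicate block gave 1 at T12, 2 at T0, 2 for the interaction, 3 for the 4 muscles, 4 for SS against LD and 2 for SS against the hind limb. Deviations of same-numbered arrays correlated at -0.07 to 0.1. Whether some same-numbered arrays share a batch cannot be told from these values.

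With each array left out, the count was 0 to 1 for callipyge at T12, the interaction and callipyge in SS, 0 to 3 at T0, 9 to 14 for age, 0 to 2 for the 4 muscles, and 1 to 2 for SS against LD and against the hind limb. Some uncalled values changed sign. KLHL28 at T12 ranged from -0.049 to 1.022, CUL1 with age from -0.07 to 0.15, TRIM2 in the callipyge difference of SS minus LD from -0.32 to 1.45, and KLHL29 in SS against the hind limb from -1.653 to 0.093. With the mean over probe sets, TRIM2 at T0 was 0.36 (-0.43 by the brightest) and FBXL20 for callipyge in SS was -0.006 (0.25 by the brightest). Over all probe sets, the calls with 1 array left out were 1 to 421 at T12 (28), 3 to 271 at T0 (27), 1220 to 1907 for age (1830) and 280 to 754 for SS against LD (463).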
